A study of Mus musculus with 22 samples.

Results

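The adiponectin receptor family, also named the PAQR family, comprises the progestin and adipoQ receptors, and its 9 members Adipor1, Adipor2, Paqr3, Paqr4, Paqr5, Paqr6, Paqr7, Paqr8 and Paqr9 were followed across the mouse retina and retinal pigmented epithelium (RPE). They were taken by name, through their Ensembl identifiers, and were found as 9 of 53801 genes in the bulk RNA-Seq tables and as 9 of 19324 genes in the single-cell matrix. At P30, bulk libraries were made from the retina and from the RPE, 4 from WT and 4 from AdipoR1–/– (KO) mice in each tissue. The single cells came from retinas of WT and KO mice at P19, P25 and P30, with 1 library of 4 pooled retinae per genotype and age, and hence 6 libraries. All mice carried the C57BL/6J strain label. KO mice were homozygous for a Deltagen Adipor1 allele, which all their cells carry and not only those of the eye, they came from heterozygous parents, and both sexes were used. The allele had been crossed into C57BL/6J and into B6(Cg)-Tyr c-2J/J, an albino line. RPE cells had been shaken off the choroid and sclera, so that the RPE libraries can hold RNA of neighbouring cells.

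PAQR proteins cross the membrane through a bundle of helices and are unrelated in sequence to G protein-coupled receptors. AdipoR1 and AdipoR2 bind adiponectin, are linked to AMPK and PPARα signalling and to ceramidase activity, and loss of AdipoR1 is known to lead to photoreceptor degeneration. Paqr3 is a Golgi protein that tethers Raf-1 and Scap, and Paqr4 is a less studied relative of the adiponectin receptors. Paqr5, Paqr6, Paqr7, Paqr8 and Paqr9 encode the membrane progestin receptors gamma, delta, alpha, beta and epsilon.

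The 3 members with the highest level per length in these libraries were Adipor1, Paqr4 and Adipor2, and the 250 bases before a RefSeq start site of each (GRCm38.p6) are shown, because Adipor1 and Paqr4 shared their highest cell class and Adipor2 did not. Capitals mark GC boxes (GGGCGG) and CCAAT boxes (CCAAT), searched on both strands.
Adipor1, chr1:134415128-134415377, plus strand: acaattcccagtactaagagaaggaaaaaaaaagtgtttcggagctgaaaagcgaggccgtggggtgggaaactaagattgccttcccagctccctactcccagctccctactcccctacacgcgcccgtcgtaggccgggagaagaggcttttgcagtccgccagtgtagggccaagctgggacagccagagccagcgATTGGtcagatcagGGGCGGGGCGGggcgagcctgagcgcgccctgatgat
Paqr4, chr17:23740331-23740580, minus strand: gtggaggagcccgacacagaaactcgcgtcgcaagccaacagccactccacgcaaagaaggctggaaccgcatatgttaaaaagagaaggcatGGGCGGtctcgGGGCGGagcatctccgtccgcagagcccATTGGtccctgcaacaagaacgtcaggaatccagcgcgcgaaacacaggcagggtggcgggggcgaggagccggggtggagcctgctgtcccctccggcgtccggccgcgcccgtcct
Adipor2, chr6:119388735-119388984, minus strand: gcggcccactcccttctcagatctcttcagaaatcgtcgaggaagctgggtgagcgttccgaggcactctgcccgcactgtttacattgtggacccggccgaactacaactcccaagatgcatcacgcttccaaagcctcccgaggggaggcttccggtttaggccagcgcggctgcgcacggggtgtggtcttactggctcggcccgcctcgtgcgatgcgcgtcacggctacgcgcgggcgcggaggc

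The windows shown for Adipor1 and Paqr4 each held 2 GC boxes and 1 CCAAT box, and that of Adipor2 held neither motif. Those of Adipor2 and Paqr4 lie inside the genes as GENCODE M21 places them, with outer 5′ ends at chr6:119417704 and chr17:23740867. Bases before these ends were not searched, so the contrast holds for the RefSeq starts shown only. They held 15 CpG dinucleotides for Adipor1, 24 for Paqr4 and 27 for Adipor2. Adipor1 has a second RefSeq start, whose window (chr1:134415414-134415663) held 2 GC boxes, 0 CCAAT boxes and 33 CpG dinucleotides, so the likeness to Paqr4 holds for the window shown only. In all, 8 of the 9 members matched the RefSeq table, with 11 promoters, and Paqr9 is named only. A GC box stood in 9 of these 11 windows and in 32.7% of all 32851 promoters, and a CCAAT box in 3 of 11 and in 33.8%. Both motifs together stood in windows of Adipor1, Paqr4 and Paqr8, and in 11.0% of all promoters. None of the 11 windows held TAATCC, the core bound by the photoreceptor factor CRX, or the E box CACGTG or the TATA box TATAAA, which stood in 6.3%, 6.0% and 12.4% of all promoters.

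The knocked-out gene itself checks the labels and was read first. Adipor1 (ENSMUSG00000026457, mm10 chr1:134415378-134433351, plus strand) had 540.9, 536.9, 524.9 and 546.5 CPM in the WT retina libraries 1 to 4 and 126.5, 124.1, 122.2 and 122.3 CPM in the KO retina libraries. In the RPE it had 411.7, 448.8, 555.1 and 406.3 CPM in WT and 158.8, 167.3, 172.8 and 155.1 CPM in KO libraries. Every KO library was below every WT library of its tissue, so that the labels held for all 16 bulk libraries. CPM are counts scaled to a common library size after TMM normalization of the 16 libraries together. The drop was 4.33-fold in the retina, from 537.3 ± 9.124 to 123.7 ± 2.003 CPM (SD, n = 4; log2 fold change -2.11 with a standard error, SE, of 0.039; edgeR adjusted p = 4.6e-13). It was 2.81-fold in the RPE, from 455.5 ± 69.04 to 163.5 ± 8.031 CPM (SD, n = 4; log2 fold change -1.49, SE 0.091, edgeR adjusted p = 0.00021). Reads on Adipor1 were thus 76.9% lower in KO retina and 64.4% lower in KO RPE, and the rest remained. The counts are per gene and hold no exons, so what part of the transcript these reads cover was not tested.

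Total counts per library lay between 27443445 and 30443894 in WT retina (median 29649656), between 22734843 and 35118164 in KO retina (median 30399001), between 20133143 and 38409496 in WT RPE, and between 25218270 and 27767074 in KO RPE. WT RPE libraries were the most unlike each other, with Pearson correlations between replicates from 0.9213 to 0.9794 over genes, against 0.9935 to 0.9968 in WT retina. Markers of each tissue were then set beside its label. The 9 RPE markers, led by Ttr, summed to between 37030 and 56080 CPM in the RPE libraries and to between 40.41 and 155.9 CPM in the retina libraries. The 9 rod markers summed to 57590, 58180, 53050 and 53190 CPM in WT retina. They also reached 1073, 17310, 17960 and 1633 CPM in WT RPE libraries 1 to 4 and 727.6, 4259, 6118 and 1147 CPM in KO RPE libraries 1 to 4. Rod RNA was therefore present in every RPE library and was highest in replicates 2 and 3 of both genotypes, and the values of the receptor family in the RPE are also given without these 4 libraries where that changed them.

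Levels of different genes were compared per length, as RPKM over the union of a gene's exons. Adipor1 was the highest member in both WT tissues, with 106.9 ± 1.816 RPKM in retina and 90.64 ± 13.74 RPKM in RPE (SD, n = 4), rank 299 of the 30960 genes with reads in WT retina and rank 609 of 32001 in WT RPE. In WT retina Paqr4 followed with 43.51 ± 1.218 RPKM and Adipor2 with 12.39 ± 0.8024 RPKM, and neither range touched its neighbours. Paqr9 (5.648 RPKM) and Paqr7 (5.42 RPKM) overlapped, Paqr8 lay at 1.736 RPKM, Paqr3 (1.528 RPKM) and Paqr6 (1.237 RPKM) overlapped, and Paqr5 was the lowest member at 0.4197 RPKM. In WT RPE the order below Adipor1 was another: Adipor2 (67.33 ± 9.522 RPKM) and Paqr4 (63.78 ± 9.749 RPKM) could not be separated over this length, and Paqr9 followed with 26.28 ± 7.474 RPKM (SD, n = 4). With other lengths the means of Adipor2 and Paqr4 in WT RPE lay further apart. They were 336.33 and 205.91 RPKM with the coding length, and 96.22 and 65.49 RPKM with the longest transcript. Paqr7 (7.272 RPKM) and Paqr8 (7.069 RPKM) overlapped, as did Paqr6 (2.59 RPKM), Paqr5 (1.802 RPKM) and Paqr3 (0.7212 RPKM) each with the next.

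**Figure D1:**
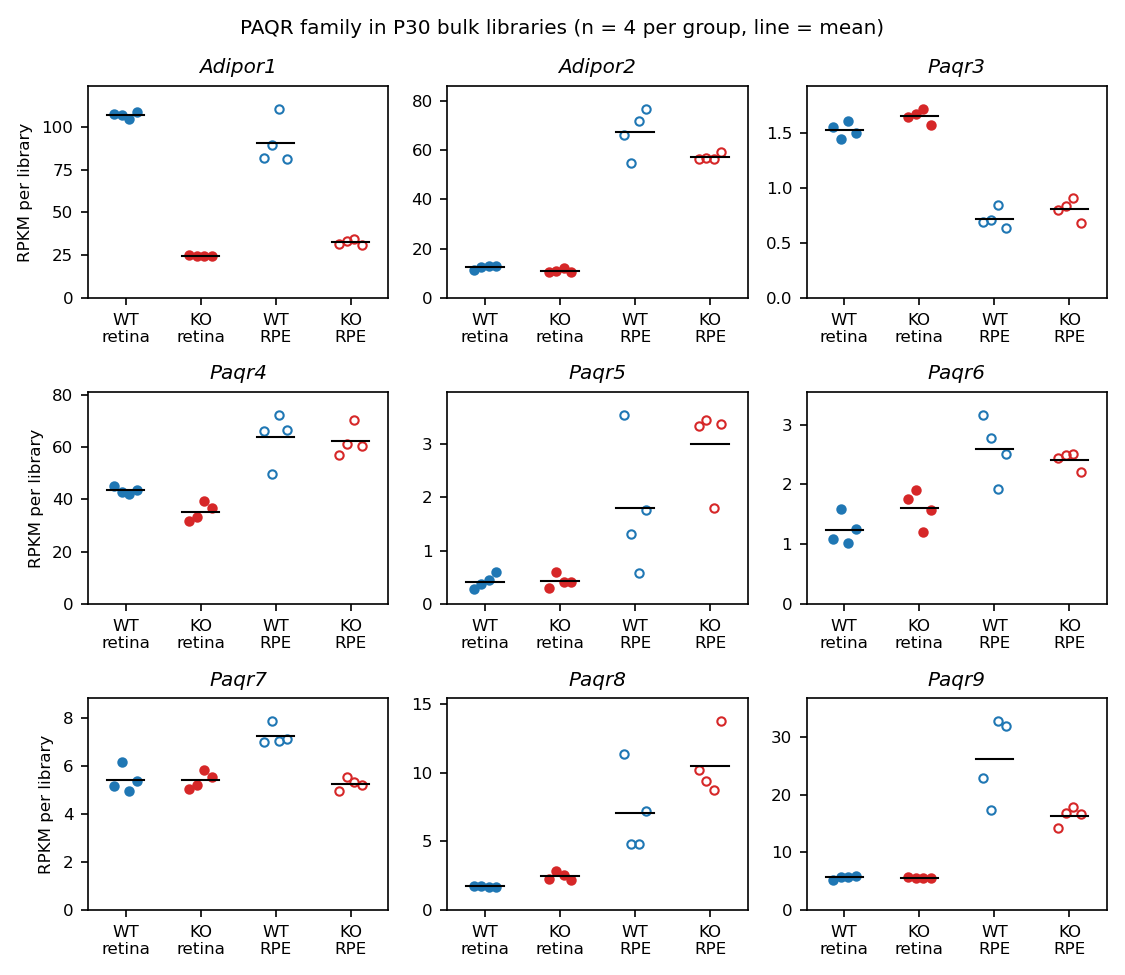
RPKM of the 9 PAQR members in each of the 16 bulk libraries (points; n = 4 per genotype and tissue) with the group mean as a line. Adipor1 is highest in both WT tissues and is low in every KO library, and Adipor2, Paqr8 and Paqr9 are higher in the RPE than in the retina in both genotypes.

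WT tissues were compared next. Of the 9 members, 7 were higher and 1 was lower in WT RPE than in WT retina by edgeR's quasi-likelihood test at an adjusted p below 0.05, in a comparison that called 81.9% of 20009 genes, 41.4% higher and 40.4% lower (66.2% with a 1.5-fold change as well). A share of 8 in 9 is close to that background, and with library totals 6 were higher and 2 lower. With a 1.5-fold change required, Paqr4 and Paqr7 were no longer called. The median log2 difference over the members was 1.07 and that over all genes 0.003.

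Adipor2, the other receptor of adiponectin, differed most with all libraries, with 67.18, 74.75, 76.51 and 77.96 CPM in WT retina and 396.1, 326.3, 429.1 and 458.8 CPM in WT RPE, 5.44-fold (log2 2.44, edgeR adjusted p = 8.3e-07). Paqr9 had 43.17, 48.09, 48.13 and 49.62 CPM in WT retina and 192.5, 144.6, 275 and 267.6 CPM in WT RPE, 4.66-fold (adjusted p = 2.3e-05 in edgeR). Paqr8 had between 9.226 and 9.797 CPM in WT retina and 62.6, 26.51, 26.56 and 39.49 CPM in WT RPE, 4.08-fold (adjusted p = 0.00023 in edgeR). The tissues did not overlap for these 3 genes, although WT RPE libraries spread widely for Paqr8 and Paqr9. How many of all genes lay without overlap was not counted, here or in the other comparisons. Paqr5 was called 4.3-fold higher in the RPE (edgeR adjusted p = 0.0059), yet 2.309 CPM in WT RPE 3 lay below the 2.346 CPM of WT retina 4. Without the RPE libraries rich in rod RNA, its log2 difference was 2.66 and that of Adipor2 2.50, so that Paqr5 then differed most. Paqr6 was higher by 1.07 on the log2 scale (adjusted p = 0.0014), Paqr4 by 0.55 (adjusted p = 0.0019) and Paqr7 by 0.43 (adjusted p = 0.0019, all from edgeR), without overlap. Paqr3, the Golgi member, was the exception and was lower in the RPE, with 5.456 ± 0.6661 against 11.56 ± 0.5339 CPM (SD, n = 4; log2 -1.08, edgeR adjusted p = 4.7e-05).

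Adipor1 itself lay 0.24 lower on the log2 scale in WT RPE than in WT retina, which was not called (edgeR adjusted p = 0.078). The highest WT RPE library was replicate 3 with 555.1 CPM, one of the pair with the most rod RNA. Without WT RPE replicate 3 the log2 difference was -0.34 (adjusted p = 0.0065), and without both WT RPE libraries rich in rod RNA it was -0.42 (adjusted p = 0.00039 in edgeR). It was also called lower by DESeq2 (-0.25, adjusted p = 0.047), by limma-voom (-0.25, adjusted p = 0.044), in the edgeR fit of all 16 libraries (-0.24, adjusted p = 0.015) and among genes with 10 counts or more in each library (-0.27, adjusted p = 0.046). With library totals in place of TMM, which moved the median of all genes by -0.258, the log2 difference of Adipor1 was -0.50 (edgeR adjusted p = 0.0026), and Paqr7, called above, was no longer called (0.17, adjusted p = 0.13).

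The next question was whether other members changed where Adipor1 was lost. In the retina, 1 of the 9 members was higher and 3 were lower in KO than in WT libraries, Adipor1 included, in a comparison that called 30.9% of 19381 genes, 16.2% higher and 14.7% lower. With library totals in place of TMM, which moved the median of all genes by 0.114, the balance turned to 3 higher (Paqr8, Paqr6 and Paqr3) and 2 lower (Adipor1 and Paqr4). With a 1.5-fold change required as well, 10.0% of genes were called, and Adipor1 was the 1 member among them. The median log2 fold change was 0.00 over the members and 0.004 over all genes.

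Paqr8, a membrane progestin receptor, was the member that rose in KO retina. It had 9.797, 9.707, 9.371 and 9.226 CPM in WT and 12.5, 15.64, 13.93 and 12.17 CPM in KO retina. All 4 KO libraries were above all WT libraries, by 0.51 on the log2 scale (SE 0.083, edgeR adjusted p = 0.00036). Paqr4, whose protein is related to the adiponectin receptors, fell. It had 119.3, 113.6, 111.7 and 115.5 CPM in WT and 83.97, 87.91, 103.8 and 97.05 CPM in KO retina, again without overlap (-0.30 on the log2 scale, SE 0.058, edgeR adjusted p = 0.0013). In a fit over all 16 libraries, which shares the larger spread of the RPE, neither call held, with adjusted p = 0.18 for Paqr8 and 0.068 for Paqr4 in edgeR.

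Adipor2 did not rise where Adipor1 was lost. It had 67.18, 74.75, 76.51 and 77.96 CPM in WT and 63.59, 66.44, 72.35 and 62.34 CPM in KO retina, groups that overlap, and was called lower by 0.16 on the log2 scale (SE 0.056, edgeR adjusted p = 0.045). That call was lost without KO retina 1 (adjusted p = 0.12), 2 (0.077) or 4 (0.11) and without WT retina 2 (0.073), 3 (0.12) or 4 (0.12), with log2 values between -0.13 and -0.16, with library totals (-0.05, edgeR adjusted p = 0.5), in the fit of all 16 libraries (adjusted p = 0.27) and by limma-voom (adjusted p = 0.052).

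The remaining 5 members were not called in KO retina. Paqr6 had 2.647, 3.845, 2.485 and 3.044 CPM in WT and 4.256, 4.648, 2.913 and 3.807 CPM in KO retina, a log2 difference of 0.38 (edgeR adjusted p = 0.099). With the replicate number as a block it was called (0.38, adjusted p = 0.035), as it was without KO retina 3 (0.50, adjusted p = 0.03), without WT retina 2 (0.53, adjusted p = 0.028) and with library totals (0.50, edgeR adjusted p = 0.032). Paqr3 differed by 0.12 (95% interval -0.01 to 0.24, adjusted p = 0.2 in edgeR), Paqr7 by 0.00 (-0.14 to 0.15) and Paqr9 by -0.00 (-0.10 to 0.09). Paqr5, at 1 to 2 CPM, differed by 0.05 with a wide interval from -0.43 to 0.53. With library totals Paqr3 was called higher (0.23, edgeR adjusted p = 0.016).

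Markers of cell types moved in the same libraries. Rod markers fell, 8 of 9 by edgeR's test, from the WT sums above to 31300, 30160, 30300 and 27320 CPM in KO retina. Microglia and macrophage markers rose, 11 of 11, from 63.62, 65.11, 67.54 and 64.46 to 217.9, 220.8, 255.5 and 238 CPM. Müller glia markers, led by Glul, included 5 that rose and 1 that fell of 8, with sums of 3557, 3792, 3503 and 3703 CPM in WT and 3647, 3689, 3400 and 3471 CPM in KO retina. Endothelial markers, 2 higher of 8 and led by Kdr, summed to 273, 296.5, 252.3 and 249.7 CPM in WT and 422.9, 404.4, 411.4 and 407.9 CPM in KO retina. Their median log2 fold change was 0.06, and Kdr alone had between 135.1 and 176.8 CPM in WT and between 273.2 and 294.5 CPM in KO retina. Astrocyte markers, 1 higher of 5 and led by Aldoc, summed to 517.2, 542.7, 507.3 and 512.6 CPM in WT and 704.9, 697, 768.6 and 763.8 CPM in KO retina. The median of that list was 0.14, and Aldoc alone had between 447.1 and 495.7 CPM in WT and between 495.7 and 532.5 CPM in KO retina. Retinal ganglion cell markers, none of 8 called, summed to between 961.3 and 1084 CPM in WT and between 915.3 and 1052 CPM in KO retina. Cone markers, 2 lower of 7, summed to 1510, 1424, 1397 and 1348 CPM in WT and 1273, 1336, 1254 and 1223 CPM in KO retina, without overlap. Horizontal cell markers, 2 higher and 3 lower of 6, summed to between 291.3 and 309.6 CPM in WT and between 271.3 and 281.5 CPM in KO retina. Cone bipolar markers, 2 higher of 8, and amacrine markers, none of 9 called, had sums that overlapped between the genotypes. Rod bipolar markers, 4 higher and 1 lower of 6 and led by Trpm1, summed to 935.9, 923.6, 976.3 and 981.9 CPM in WT and 1042, 1043, 1039 and 1048 CPM in KO retina. No marker of these lists was at 0 in a retina library. Fibroblast markers, 3 higher of the 4 tested and led by Pdgfra, summed to 16.46, 21.43, 20.96 and 20.74 CPM in WT and 28.67, 64.11, 27.46 and 30.76 CPM in KO retina, with 1 of 5 markers at 0 in WT retina 1, 2 and 4 and in KO retina 1. KO retina 2 had both the highest fibroblast sum and the highest Paqr8. In bulk tissue, fewer cells of a type and less RNA per cell cannot be told apart. The part of these shifts in the values of Adipor1, Paqr4 and Paqr8 was not tested in bulk, and the levels per cell class are given below.

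In the RPE, 2 of the 9 members were lower in KO than in WT libraries and none was higher, in a comparison that called 6.73% of 18989 genes, 2.84% higher and 3.89% lower (4.97% with a 1.5-fold change as well). These were Adipor1 and Paqr7, the membrane progestin receptor alpha, and the median log2 fold change was -0.13 over the members and -0.019 over all genes. Markers of the tissue itself were counted in the same libraries, and of the 9 RPE markers 2 were lower and none higher in KO (median -0.34), with sums of 55520, 37030, 54350 and 56080 CPM in WT and 48500, 48390, 49100 and 50220 CPM in KO RPE, where WT RPE 2 lay below every KO library and the other WT libraries above. Rod markers had a median of -1.24 and red blood cell markers, with sums from 2747 to 4984 CPM in WT and from 1043 to 2870 CPM in KO RPE, of -1.04, with none called in either list. Microglia and macrophage markers rose, 9 of 11 called, with a median of 1.64. The part of these shifts in the falls of Adipor1 and Paqr7 and in the lower values of Paqr9 and Adipor2 was not tested beyond the fits without, or adjusted for, rod RNA. At an unadjusted p under 0.05 no member was higher in edgeR and 4 were lower, Adipor2 and Paqr9 besides, where 9.55% of all genes were higher and 10.8% lower, and DESeq2 called no member higher.

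Paqr7 had 29.87, 33.64, 29.98 and 30.4 CPM in WT RPE and 21.22, 23.62, 22.76 and 22.19 CPM in KO RPE. No KO library reached a WT library, and the difference was -0.48 on the log2 scale (95% interval -0.62 to -0.34, edgeR adjusted p = 0.0069). The same difference appeared within the libraries poor in rod RNA, but with n = 2 per genotype it was not called (-0.50, edgeR adjusted p = 0.092). With the log2 of the rod sum as a covariate it was called (adjusted p = 0.0068 in edgeR).

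Paqr9 had 192.5, 144.6, 275 and 267.6 CPM in WT RPE and 118.8, 140.5, 149.7 and 139 CPM in KO RPE. WT RPE 2 fell among the KO libraries and the other WT libraries lay above them. The log2 difference of -0.70 (SE 0.195) was not called by edgeR (adjusted p = 0.079). It was called by DESeq2 (adjusted p = 0.0029), in the edgeR fit over all 16 libraries (-0.68, adjusted p = 0.0079) and without WT RPE 2 (-0.84, adjusted p = 0.01), but not without the libraries rich in rod RNA (-0.86, adjusted p = 0.13), with the rod sum as a covariate (-0.71, adjusted p = 0.067) or without any other single library, with edgeR adjusted p between 0.068 and 0.21. WT RPE 2 also had the lowest sum of RPE markers, 37030 CPM, and 310.2 CPM of lens markers, whose sums were 21.79, 21.98 and 664.8 CPM in WT RPE 1, 3 and 4 and between 12.32 and 31.11 CPM in KO RPE. The part of these differences in the values of WT RPE 2 was not tested.

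Adipor2 again did not rise, with 396.1, 326.3, 429.1 and 458.8 CPM in WT and 336.8, 340.2, 337.7 and 354.1 CPM in KO RPE. Its log2 difference of -0.25 (95% interval -0.46 to -0.04) was not called (edgeR adjusted p = 0.23), and without WT RPE 2 it was -0.33 and was called (adjusted p = 0.017). Paqr8 had 62.6, 26.51, 26.56 and 39.49 CPM in WT and 56.04, 51.61, 47.97 and 75.8 CPM in KO RPE. Its log2 difference of 0.55 was close to that in the retina but had a standard error of 0.309 (edgeR adjusted p = 0.36). It was called without WT RPE 1 (0.90, adjusted p = 0.045), but was 0.33 without the libraries rich in rod RNA (adjusted p = 0.59) and 0.36 with the rod sum as a covariate (edgeR adjusted p = 0.22). Paqr5 had 14.02, 5.181, 2.309 and 6.989 CPM in WT and 13.15, 13.64, 7.128 and 13.32 CPM in KO RPE, a difference of 0.70 with a standard error of 0.508 (edgeR adjusted p = 0.48), which was 0.29 without the libraries rich in rod RNA (adjusted p = 0.72) and 0.48 with the rod sum as a covariate (adjusted p = 0.43). Endothelial markers, where Paqr5 was concentrated in single cells, summed to 425, 419.1, 287.3 and 269.5 CPM in WT and 335.8, 364.1, 305.2 and 499.7 CPM in KO RPE. Fibroblast markers, none of 5 called and led by Col1a2, summed to 1430, 712.4, 460.1 and 559.6 CPM in WT and 1154, 869.3, 692.5 and 1010 CPM in KO RPE. Within each genotype Paqr5 was lowest in replicate 3, where the fibroblast sum was lowest too, and in WT both Paqr5 and Paqr8 were highest in replicate 1, where it was highest. The part of either list in Paqr5 and Paqr8 was not tested. Paqr4 (-0.05, 95% interval -0.28 to 0.18), Paqr3 (0.15, -0.10 to 0.40) and Paqr6 (-0.13, -0.47 to 0.22) were not called. Without the libraries rich in rod RNA they were not called either, with -0.21 for Paqr4, 0.13 for Paqr3 and -0.32 for Paqr6.

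**Figure D2:**
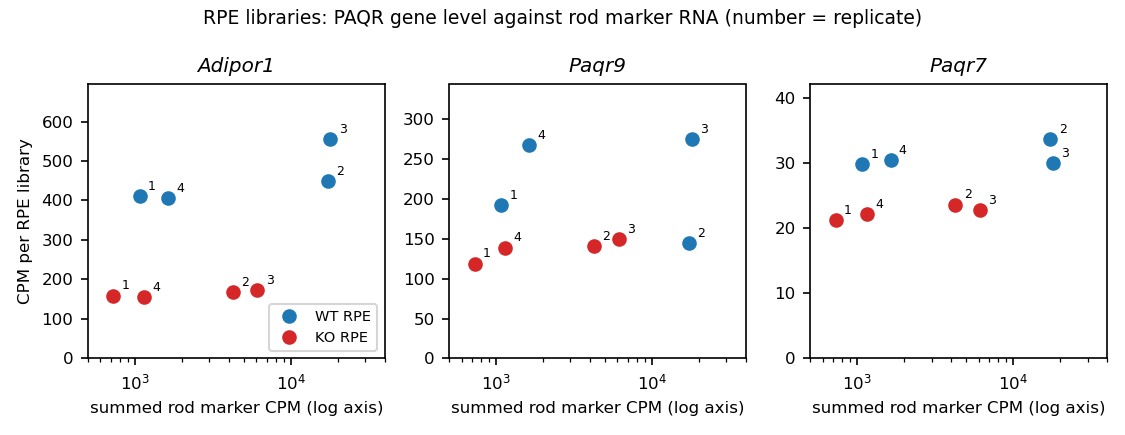
CPM of Adipor1, Paqr9 and Paqr7 in each RPE library against the summed CPM of 9 rod markers (log axis); numbers are replicates. Rod RNA was highest in replicates 2 and 3 of both genotypes; Adipor1 and Paqr7 separate the genotypes at both levels of rod RNA, and Paqr9 of WT RPE 2 lies with the KO libraries.

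The KO effects of the tissues were then compared directly, as the genotype by tissue interaction over all 16 libraries. It was called for 2 of 9 members, 1 in each direction, against 8.84% of 21068 genes, 3.11% higher and 5.73% lower (5.99% with a 1.5-fold change as well), and with library totals for 1 higher and 2 lower. For Adipor1 the effect in the RPE was 0.64 higher on the log2 scale than in the retina (SE 0.117, edgeR adjusted p = 0.0029), meaning a smaller drop. For Paqr7 it was -0.46 (SE 0.103, edgeR adjusted p = 0.01), the fall being present in the RPE. Paqr9 gave -0.68 and was not called (adjusted p = 0.068), though it was with library totals (-0.79, adjusted p = 0.016), without WT RPE 2 (-0.83, adjusted p = 0.0021) and without the RPE libraries rich in rod RNA (-0.81, edgeR adjusted p = 0.0029). For Paqr8 the difference was 0.07, with an interval from -0.57 to 0.71, and for Adipor2 it was -0.07, from -0.32 to 0.17.

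**Figure D3:**
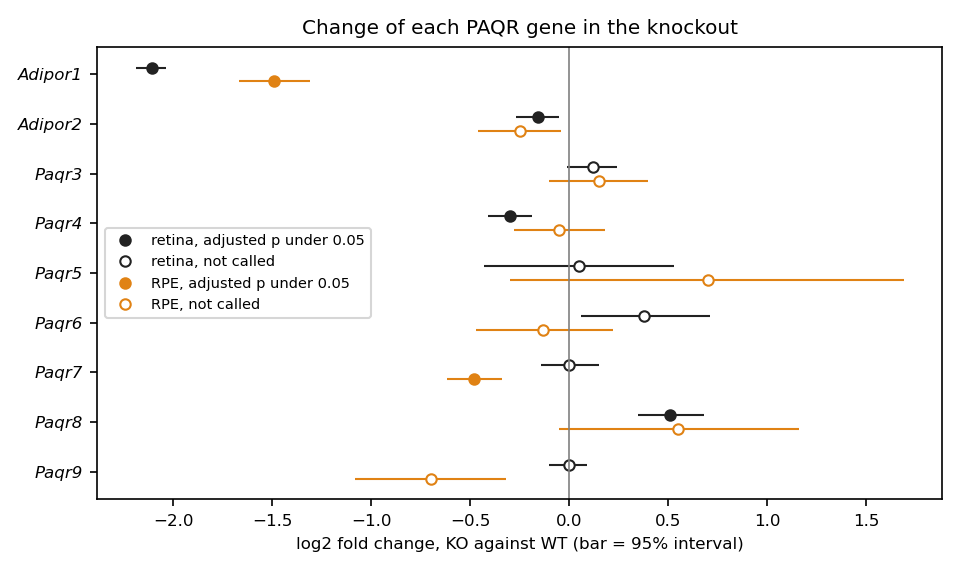
Log2 fold change (KO over WT) of each PAQR member in retina (black) and RPE (orange) with its 95% interval from edgeR; filled points have an adjusted p below 0.05. Adipor1 is at -2.11 and -1.49, and the other members lie between -0.70 and 0.70.

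The loss of Adipor1 reads changed the make-up of the family. The summed level of the 9 members was 178.8 ± 2.816 RPKM in WT and 88.14 ± 3.613 RPKM in KO retina, and 267.5 ± 30.8 RPKM in WT and 190.4 ± 7.342 RPKM in KO RPE (SD, n = 4). Adipor1 made up 59.8% of that sum in WT and 27.99% in KO retina, and 34.01% in WT and 17.09% in KO RPE. In KO retina Paqr4 was the highest member with 35.24 ± 3.378 RPKM, above Adipor1 with 24.62 ± 0.3987 RPKM in all 4 libraries. That separation depended on the length used: the means were 36.18 for Paqr4 and 35.91 RPKM for Adipor1 with the longest transcript and 113.76 and 109.99 RPKM with the coding length, and with either length Paqr4 was higher in 2 and Adipor1 in the other 2 of the 4 libraries. In KO RPE Paqr4 (62.28 ± 5.757 RPKM) and Adipor2 (57.23 ± 1.345 RPKM) led with overlapping ranges, followed by Adipor1 with 32.53 ± 1.598 RPKM. The order of Paqr4 and Adipor2 in KO RPE was reversed with the coding length or the longest transcript as the length, while Adipor1 stayed first in both WT tissues with all 3 lengths.

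Single cells gave the level of each member by cell class. The matrix held 26764 cells, between 2558 and 5633 per library, with a median of 3407, 4357 and 1416 UMIs per cell in WT and 3568, 2523 and 1349 UMIs in KO libraries at P19, P25 and P30. Cells were clustered here and classes named from marker genes, which gave 12 classes and left 1350 cells unnamed, so shares may differ from those in the study. Rods were the most frequent class with 8129 cells, followed by amacrine cells (6492), cone bipolar cells (4140), Müller glia (2105), rod bipolar cells (1818) and cones (1572). The rarer classes were retinal ganglion cells (401), endothelial cells (260), horizontal cells (173), microglia and macrophages (133), pericytes and mural cells (120) and astrocytes (71). The endothelial cluster also carried haemoglobin genes among its leading genes. The P30 libraries were sequenced in a batch of their own, so that age and batch cannot be told apart, and 49 barcodes occurred in more than 1 library, in 98 cells. Levels are CPM, the UMIs of a gene scaled by all UMIs of its class, with exact 95% Poisson intervals that cover counting error only. With 1 library per genotype and age, single ages allowed no test, and the order of classes is a description.

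Adipor1 was highest in rods and was detected in every class. WT rods had 613.0 CPM over the 3 ages (95% interval 589.2 to 637.5, 2503 UMIs), with 548.2, 501.7 and 723.7 CPM at P19, P25 and P30. Endothelial cells (181.3 CPM) and cones (168.3 CPM) came next with the ages pooled, and the other neurons and glia lay lower, with 94.37 CPM in rod bipolar cells, 88.81 in cone bipolar cells, 75.63 in Müller glia, 64.81 in amacrine cells and 45.76 in retinal ganglion cells. The intervals of endothelial cells and cones overlapped at P19. At P25 and P30 cones were second, with too few endothelial cells to be ranked. RNA shed by rods can enter the droplets of other cells, and its part in the low levels of the other classes was not tested.

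Paqr4, like Adipor1, was highest in rods, with 99.92 CPM in WT rods and 62.67 CPM in cones, against 25.78 CPM in Müller glia, 23.38 in cone bipolar cells, 17.3 in endothelial cells and 4.366 in rod bipolar cells. It thus differed from Adipor1 in endothelial and rod bipolar cells, where Adipor1 had 181.3 and 94.37 CPM. Adipor2 was highest in endothelial cells with 151.2 CPM, followed by rods with 36.49, Müller glia with 32.66 and the other neurons with between 11.34 and 26.57 CPM. By age, WT rods had 40.83, 53.5 and 23.73 CPM of Adipor2 at P19, P25 and P30, and Müller glia 40.58, 29.83 and 3.946 CPM. The intervals of these classes lay apart at P25 and overlapped at P19 and P30. Paqr3 was low throughout, and 175 of its 347 WT UMIs came from amacrine cells (8.42 CPM).

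The progestin receptors differed in their leading class. Paqr5 was highest in endothelial cells, with 183.9 CPM and 287 of its 296 UMIs in WT cells, and no other class had more than 3. Paqr6 was found in Müller glia, with 41.82 CPM and 146 of 161 UMIs. Paqr7 was highest in endothelial cells (53.17 CPM) and retinal ganglion cells (40.59 CPM) and low in rods (3.674 CPM). Paqr8 was highest in retinal ganglion cells (23.25 CPM), followed by endothelial cells (11.53 CPM) and Müller glia (10.31 CPM). Paqr9 was highest in Müller glia (112.9 CPM), then in rod bipolar (54.41 CPM) and cone bipolar cells (49.11 CPM), and had 0 UMIs in 140 WT endothelial cells. These orders are of pooled ages, and the leading class of each of the 9 members was the same at 2 other clustering resolutions. By library, among classes with at least 50 cells, Adipor1 and Paqr4 led in rods and Paqr6 and Paqr9 in Müller glia in all 3 WT libraries, though the interval of the next class overlapped for Paqr4 at P19 (cones) and for Paqr9 at P30 (cone bipolar cells). Endothelial cells reached that number at P19 alone of the WT libraries, where they led for Adipor2, Paqr5 and Paqr7. The intervals of the 2 leading classes overlapped at P19 for Paqr7 (endothelial and retinal ganglion cells) and for Paqr8 (retinal ganglion and endothelial cells). At P25 retinal ganglion cells led for both, with 41.43 CPM of Paqr7 and 34.06 CPM of Paqr8, beyond the interval of the next class, and at P30, where 17 retinal ganglion cells were too few to be ranked, Müller glia did on few UMIs. Paqr3 had another leading class at each age, with overlapping intervals.

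**Figure D4:**
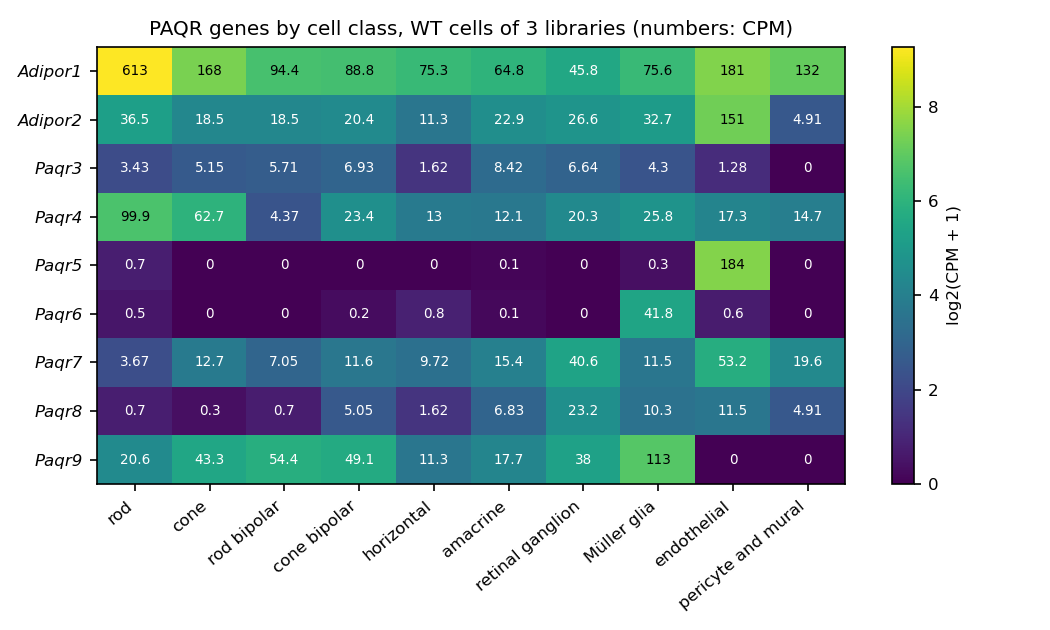
CPM of the 9 PAQR members in 10 cell classes of the WT retina (single cells, 3 ages pooled); numbers are CPM and colour is log2(CPM + 1). In the pooled values Adipor1 and Paqr4 peak in rods, Adipor2, Paqr5 and Paqr7 in endothelial cells, Paqr6 and Paqr9 in Müller glia and Paqr8 in retinal ganglion cells.

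Some members were lower in the P30 libraries. In WT amacrine cells Paqr8 had 6.61, 7.98 and 0.7014 CPM at P19, P25 and P30, Paqr3 had 9.762, 8.085 and 1.403 CPM and Adipor2 had 24.61, 23.1 and 10.52 CPM. Adipor1 did not share this drop, with 60.1, 67.62 and 78.56 CPM in the same cells. P30 values of the low members therefore rest on few UMIs, 3 for Paqr8 in the whole KO P30 library.

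Adipor1 was lower in KO than in WT cells of each class given here. KO rods had 81.02, 117.6 and 114.7 CPM at P19, P25 and P30, against the WT values above. The KO to WT ratio was 0.1478, 0.2343 and 0.1585 at the 3 ages and 0.1776 with the ages pooled (95% interval 0.1634 to 0.1929). The pooled ratio was 0.2157 in endothelial cells, 0.2813 in cone bipolar cells, 0.2867 in Müller glia, 0.2999 in cones, 0.3154 in rod bipolar cells, 0.3427 in amacrine cells and 0.4277 in retinal ganglion cells (0.2928 to 0.6133). Where the 3′ tags lie relative to the deleted stretch of the gene was not given in the sources used here, and a tag outside it would not check the deletion. Rods had fallen into clusters that were mostly of 1 genotype: cluster 0 held KO and cluster 1 WT rods of P19 and P25, cluster 2 KO and cluster 6 WT rods of P30, and Müller glia were split by age into clusters 4 and 23. At resolution 2 Müller glia were split by genotype as well. A cluster led by Crym and S100a6, with Lcn2 among its leading genes, held 200 KO and 9 WT cells of P19 and 470 KO and 13 WT cells of P25, and another led by Aqp4 held 234 KO and 294 WT cells of P19 and 15 KO and 320 WT cells of P25.

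**Figure D5:**
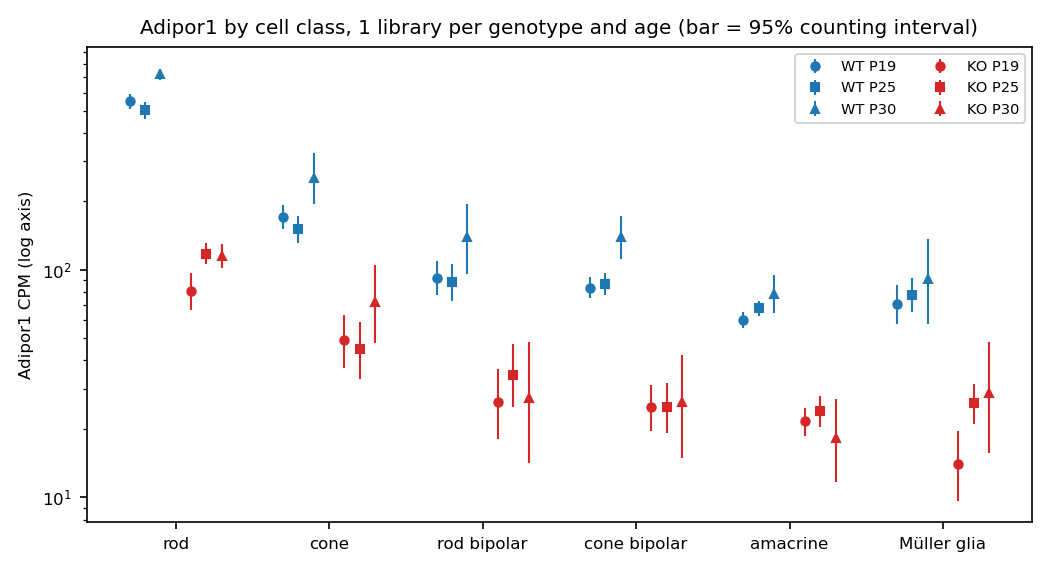
Adipor1 CPM (log axis) in 6 cell classes of each single-cell library, WT and KO at P19, P25 and P30, with 95% counting intervals. WT rods lie between 501.7 and 723.7 CPM and KO rods between 81.02 and 117.6 CPM.

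Over the 3 ages, rods allowed a test, with age in a limma-trend model and 2 residual degrees of freedom. It called 6.60% of 11676 genes, 4.48% higher and 2.12% lower in KO rods. Of the 9 members, 6 had at least 20 UMIs in rods and were tested, and Adipor1 was the 1 called, by -2.49 on the log2 scale (SE 0.14, limma adjusted p = 1.5e-07). Paqr4, second in rods, had 108.9, 118.1 and 83.05 CPM in WT and 107.1, 97.3 and 64.08 CPM in KO rods. KO was lower at each age but by amounts within the counting error at P19 and P25, and the log2 difference of -0.22 (SE 0.14) was not called (limma adjusted p = 0.39). Adipor2 had 40.83, 53.5 and 23.73 CPM in WT and 53.54, 50.68 and 20.24 CPM in KO rods, higher at 1 age and lower at 2, and was not called (0.03, limma adjusted p = 0.95). Paqr3, Paqr7 and Paqr9 were not called either, with log2 differences of 0.32, 0.24 and 0.15. Paqr3 and Paqr7 rest on 46 and 47 UMIs in rods, with limma standard errors of 0.45 and 0.43, and changes of 1.5-fold were not detectable at this depth.

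In Müller glia, the class with most Paqr9 and Paqr6, Paqr9 had 129.6, 106.5 and 55.24 CPM in WT and 89.08, 64.81 and 51.23 CPM in KO cells. The KO to WT ratio was 0.6874 (0.5644 to 0.8377) at P19, 0.6088 (0.4998 to 0.7425) at P25 and 0.9273 (0.4638 to 1.93) at P30, beyond counting error at P19 and P25. Paqr6 had 34.69, 40.95 and 90.76 CPM in WT and 27.5, 31.05 and 51.23 CPM in KO cells, lower at every age, though each interval of the ratio at a single age included 1. Paqr8 had the opposite direction in Müller glia, with 11.13 and 9.945 CPM in WT and 19.29 and 20.42 CPM in KO cells at P19 and P25. The ratio was 1.734 (0.9775 to 3.221) and 2.054 (1.201 to 3.71), and at P30 there were 2 UMIs in WT and 0 in KO cells. Bulk KO retina, where Paqr8 rose, Paqr9 differed by -0.00 and Paqr6 by 0.38 (not called), pooled all classes and was of P30 only. In all cells of a library, Paqr8 had 6.368, 7.227 and 1.353 CPM in WT at P19, P25 and P30. It had 8.623, 8.96 and 0.4833 CPM in KO libraries, and the P30 values rest on 7 UMIs in WT and 3 in KO. In all cells of a library, Paqr6 had 2.359, 3.498 and 4.833 CPM in WT at P19, P25 and P30. The KO libraries had 3.046, 5.74 and 4.189 CPM. In retinal ganglion cells, with the highest level of Paqr8, the pooled ratio was 0.8213 (0.5383 to 1.24), and in amacrine cells it was 1.246 (0.982 to 1.581). In endothelial cells, Paqr5 had 196.9 CPM in WT and 261.4 CPM in KO cells at P19, a ratio of 1.327 (1.079 to 1.631), and Adipor2 159.8 and 107.5 CPM, a ratio of 0.6729 (0.5033 to 0.892). At P25 Paqr5 had 149 CPM in WT and 177 CPM in KO cells and Adipor2 138.8 and 147.2 CPM, and neither ratio went beyond counting error. The KO libraries of P19 and P25 thus differed from each other by about as much as the genotypes did at P19. The split of Müller glia by genotype at resolution 2, given above for P19 and P25, was not tested for its part in their ratios. The endothelial ratios compare single libraries with few cells, 91 WT and 51 KO endothelial cells at P19.

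RPE-like cells were too few in the single-cell libraries to follow the family. They made up part of an unnamed cluster of 227 cells, and a finer clustering set apart 83 of them, 41 WT and 42 KO. There Adipor1 had 14 UMIs in WT cells (112.3 CPM, 61.4 to 188.4) and 6 in KO cells (55.67 CPM, 20.43 to 121.2), intervals that overlap.

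The other genes of the superfamily, Mmd and Mmd2, were examined beside the 9 members. Mmd, named for its expression during monocyte to macrophage differentiation, had 32.85, 39.91, 52.03 and 39.95 CPM in WT and 80.49, 86.35, 88.29 and 85.21 CPM in KO RPE. It rose in KO RPE by 1.03 on the log2 scale without overlap (SE 0.112, edgeR adjusted p = 0.0019), and was called without the libraries rich in rod RNA as well (adjusted p = 0.042). In the retina it differed by 0.11 and was not called (edgeR adjusted p = 0.096), but was called with library totals (0.22, adjusted p = 0.0032) and without KO retina 3 (0.14, adjusted p = 0.048), and the interaction was 0.94 (adjusted p = 0.00075). Microglia and macrophage markers rose in the same RPE libraries, 9 of 11, from sums of 761, 489.6, 692.4 and 723.9 CPM in WT to 911.6, 986.3, 1012 and 1017 CPM in KO RPE, led by Csf1r and with no marker at 0, and their part in Mmd was not tested. Mmd2 was lower in KO retina by 0.16 on the log2 scale, from 66.21, 68.54, 64.09 and 62.49 to 58.07, 57.47, 61.78 and 55.95 CPM (edgeR adjusted p = 0.017, but 0.4 with library totals and 0.88 in the fit of all 16 libraries), and was highest in Müller glia among the larger WT cell classes (206.3 CPM). Both genes were lower in WT RPE than in WT retina, by 0.68 for Mmd (edgeR adjusted p = 0.0013) and 2.24 for Mmd2 (adjusted p = 0.00087; log2 -3.15 without the RPE libraries rich in rod RNA).

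Genes around the receptors were grouped by role. Of 14 ligands and binding proteins, 9 were tested in the retina and 7 rose in KO, with a median log2 fold change of 0.69 against 0.004 over all genes, and none fell. Over all genes 16.2% rose. The strongest were the complement C1q chains, which share the adiponectin fold, C1qa (2.68, SE 0.089, edgeR adjusted p = 1.2e-10), C1qb (2.67) and C1qc (2.55). C1qa went from 4.102 ± 0.1248 to 26.26 ± 2.917 CPM in the retina (SD, n = 4). These 3 genes are also in the list of microglia markers, whose sums are given above, and the part of microglia in the count was not tested. In the RPE 12 were tested and the same 3 C1q genes rose, by 2.18 for C1qa, 1.92 for C1qb and 1.98 for C1qc, where 2.84% of all genes rose. Adipoq, the gene of adiponectin itself, was at or near 0 in the libraries, with group means between 0.03097 and 0.6688 CPM, and was not tested in the retina.

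Of the 14 genes of the adaptor and AMPK arm downstream of the receptors, none rose and 8 fell in KO retina, with a median of -0.14, where 14.7% of all genes fell. Rod markers fell in the same libraries, 8 of 9 with a median of -0.79, and their part in this count was not tested. The genes that fell included Prkab1, an AMPK subunit (-0.53, SE 0.046, edgeR adjusted p = 1.4e-06), Ppara, the fatty acid sensing nuclear receptor (-0.97, adjusted p = 1.4e-05), and Camkk2, a kinase of AMPK (-0.59, adjusted p = 2.1e-05). In the RPE 2 fell, with a median of -0.07 and 3.89% of all genes lower, namely Prkag3 (-0.91, adjusted p = 0.027) and Ppara (-0.64, adjusted p = 0.041 in edgeR). Of the ceramidases and sphingosine kinases, 6 of 7 were tested in each tissue. In KO retina 1 rose, the lysosomal ceramidase gene Asah1, by 0.17 (edgeR adjusted p = 0.021), from 52.47 ± 2.197 to 58.84 ± 3.606 CPM (SD, n = 4). That is 16.7% of those tested, beside the 16.2% of all genes that rose. None was called in the RPE, where the median was -0.03. Of the progestin binding partners Pgr, Pgrmc1 and Pgrmc2, 3 were tested in retina and 2 in RPE, and none was called, with medians of -0.03 and -0.25.

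Paqr3 anchors Scap, and 3 of the 10 partners listed for it were called in opposite directions in the tissues. Of its 10 Golgi and Raf partners, 4 rose and 2 fell in KO retina (median 0.07), where 16.2% of all genes rose and 14.7% fell, with Insig1 0.38 higher (edgeR adjusted p = 2e-05), Srebf2 0.53 (adjusted p = 3.4e-05) and Srebf1 0.47 (adjusted p = 0.00016). In KO RPE the same 3 genes were the ones that fell (median of the 10 genes -0.01, with 3.89% of all genes lower), by 1.28 for Insig1 (edgeR adjusted p = 0.002), 0.46 for Srebf2 (adjusted p = 0.0024) and 0.76 for Srebf1 (adjusted p = 0.0075). Insig1 went from 148.2 ± 28.46 to 61.69 ± 4.475 CPM in the RPE and from 77.75 ± 4.348 to 101.1 ± 3.394 CPM in the retina (SD, n = 4). The interaction was called for each of the 3 genes, at -1.64, -0.97 and -1.20. Insig2, the close relative of Insig1, had means of 40.96 CPM in WT and 39.72 CPM in KO retina, and 65.18 and 68.03 CPM in RPE. Rod markers fell in the same retina libraries, 8 of 9. Microglia and macrophage markers rose, 11 of 11 in retina and 9 of 11 in RPE, where 2 of 9 RPE markers fell. The part of these shifts in the partner genes was not tested. Paqr3 itself was called in neither tissue.

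A knockout carries the chromosome around its allele, so the neighbours of Adipor1 were counted. Of 68 annotated genes that start within 1 Mb, 32 were tested in the retina, and 6 rose and 10 fell, with a median of 0.02. That is 50% of those tested, against 30.9% of all genes. The 3 with the smallest p were Chil1 (2.12), Shisa4 (-1.18) and Prelp (1.04, edgeR adjusted p = 3e-07). In the RPE 33 were tested and 2 rose, 6.06% against the 6.73% of all genes called there, Gm15454 (1.00, edgeR adjusted p = 0.0077) and Arl8a (0.29, adjusted p = 0.041), with a median of 0.00.

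Genes with the most similar pattern over the 12 WT cell classes were listed for each member with at least 200 UMIs, among 12377 genes, by Pearson's r of log2(CPM + 1). Classes share libraries and depth, and rare classes weigh as much as large ones. For Adipor1 these were Tnfaip3 (r = 0.927), Trafd1 (0.925), Alpl (0.92), Guca1b (0.917), a guanylate cyclase activator of photoreceptors, and Galnt4 (0.909). For Paqr4 they included Clba1 (0.947), Ift122 (0.94), Mecr (0.93) and Bbs2 (0.919), of which Ift122 and Bbs2 encode ciliary proteins. For Paqr5 they were Mfsd2a (0.993), the endothelial carrier of DHA lipids, Ly6a, AU021092, Vwf and Cdh5 (0.99). For Adipor2 they were Eif2ak3 (0.972), Taok2, Git2, Slc46a3 and Mknk1, and for Paqr9 Sms (0.964), Zfp286, Galnt13, 5530601H04Rik and Zfp112. The closest was Brat1 for Paqr3 (0.929), Adss for Paqr7 (0.904) and Nkain4 for Paqr8 (0.917), and Paqr6 had too few UMIs.

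Overlapping genes limit some of these counts. Paqr3 (mm10 chr5:97082329-97111596, minus strand) overlaps Bmp2k and Paqr4 (chr17:23736186-23740867, minus strand) overlaps Pkmyt1, each on the opposite strand, as Paqr5 and Paqr8 do small RNA genes, while Mmd is overlapped on its own strand by Gm45716 and Gm45883, and whether the counting used strand was not given in the sources used here. Reads of the pairs may be mixed in the bulk values. Adipor2 (chr6:119353150-119417704, minus strand), Paqr5 (chr9:61953481-62026856, minus strand), Paqr6 (chr3:88364584-88368541, plus strand), Paqr7 (chr4:134496697-134510235, plus strand), Paqr8 (chr1:20890606-20939650, plus strand) and Paqr9 (chr9:95559657-95568023, plus strand) are protein-coding genes of the same annotation.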

How the data were processed

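Bulk RNA-Seq libraries of retina and RPE (16 in all) and single-cell libraries of the retina (6) were grouped by genotype, tissue and age from their labels. The bulk tables, as the authors deposited them, hold raw read counts for every gene. The single-cell matrix deposited by the authors holds natural log values. Per the submitters' processing notes the tools included Cell Ranger 2.1, Seurat 3.2.2, edgeR 3.20.9, HOMER, bcl2fastq and FastQC, with the build mm10, without their roles. The aligner, the counting program, the annotation, the use of strand and the filters on cells were not given in the sources used here. Symbols and lengths came from GENCODE M21, which held 53620 of 53801 identifiers (181 had none).

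Counts were analysed in R 4.3.3 with edgeR 4.0.16 (default filter on low counts, TMM, quasi-likelihood test, Benjamini-Hochberg adjustment over all genes tested, threshold 0.05), with DESeq2 1.42.0 and limma 3.58.1 as alternatives. Each tissue was fitted alone, and the interaction over all 16 libraries. Replicates are separate samples by their labels. CPM and RPKM were computed after TMM scaling of all 16 libraries. The fits were tested on simulated data.

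An inverse step, taken 2 times, recovered whole UMI counts from the deposited natural log values. After 1 inverse step each cell summed to 10000 and 66.67% of values were whole within 0.01, and after 2 steps 99.99999% were, with 4 cells holding a value that was not. Cells were clustered in Python 3.11.15 with scanpy 1.11.5 and leidenalg 0.10.2 (2000 variable genes, 30 components, 15 neighbours, resolution 1, with 0.5 and 2 as alternatives), numpy 2.4.6 and scipy 1.17.1. No doublet caller was run, and rods were also compared after removing the 5% with the highest UMI totals. Naming a cluster needed at least 3 markers raised at least 2-fold, which alone was not enough. At resolution 1 a cluster of 227 cells with 8 raised RPE markers stayed unnamed. At resolution 2 so did a cluster of 1692 cells with 9 raised rod markers. Rod sums were compared by limma-trend (prior count 2 on the log2 CPM, genes from 20 UMIs up). The plan had assumed raw UMI counts and edgeR, which became the alternative because the deposited values are logarithms. Figures were drawn with matplotlib 3.10.9.

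The members, the gene and marker lists, the tests and the alternatives were chosen with earlier results of these data known. The 9 members and Mmd and Mmd2 were always named, and of each list up to 3 genes per tissue, those past the threshold with the smallest p. The likeness list took the 5 genes with the highest r. Sample titles carry replicate numbers but do not state that same-numbered samples are pairs, and the main tests did not use the numbers. Deviations of same-numbered WT and KO libraries correlated by 0.30, 0.12, 0.19 and 0.21 in the retina and by 0.59, 0.58, 0.73 and 0.36 in the RPE. Retina libraries with different numbers correlated by between -0.34 and 0.22, so some of them reached the values of same-numbered ones. RPE libraries with different numbers correlated as strongly within the rod-rich pair (0.59 and 0.40 for 2 and 3) and the rod-poor pair (0.70 and 0.56 for 1 and 4), so the numbers there follow the rod RNA as well. Some genes are not reported here.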

Additional observations from a re-analysis of the deposited data

Results flagged for a closer look

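Of 44 groups of 4 libraries examined, 2 held a library far from the other three by Dixon's criterion at 95%, which chance meets in about 1 group in 20. Paqr5 had 7.128 CPM in KO RPE replicate 3, against 13.15, 13.32 and 13.64 CPM in the others, and the summed endothelial markers of that library, 305.2 CPM, were the lowest of the KO RPE libraries. The summed fibroblast markers there were also the lowest, 692.5 CPM against 869.3 to 1154 CPM, and the rod markers the highest, 6118 CPM, and the part of these in Paqr5 was not tested. Paqr7 had 33.64 CPM in WT RPE replicate 2, against 29.87, 29.98 and 30.4 CPM in the others. That library also had the lowest RPE marker sum of the WT RPE libraries, 37030 CPM, and the part of this in Paqr7 was not tested.

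Several KO effects differed between the tissues by edgeR's interaction term, given here as the log2 effect in the RPE minus that in the retina, adjusted over 21068 genes. Among the receptor family the difference was 0.64 for Adipor1 (adjusted p = 0.0029), -0.46 for Paqr7 (adjusted p = 0.01) and 0.94 for Mmd (adjusted p = 0.00075). Among the ligands it was -1.01 for C1qtnf6 (adjusted p = 0.041) and -0.73 for C1qb (adjusted p = 0.044). In the AMPK arm it was 0.37 for Ppargc1a (adjusted p = 0.0069) and -0.98 for Prkag3 (adjusted p = 0.012). Among the Paqr3 partners it was -1.64 for Insig1 (adjusted p = 1.2e-05), -0.97 for Srebf2 (adjusted p = 2e-05) and -1.20 for Srebf1 (adjusted p = 0.00012). Among the chromosome neighbours of Adipor1 it was -1.71 for Chil1 (adjusted p = 1.4e-05), 0.99 for Gm15454 (adjusted p = 0.0014) and 0.76 for Shisa4 (adjusted p = 0.0034).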

How the results depend on the processing

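Adipor1 kept its direction and its call in every KO comparison and alternative run, in retina, RPE and rods. The number of members called moved more. In KO retina it was 4, and 1 when a 1.5-fold change was also required or when all 16 libraries shared 1 fit, between 3 and 5 with 1 library left out, 5 with the replicate block, and 5 with library totals, which turned 1 higher and 3 lower into 3 higher and 2 lower. In KO RPE it was 2, and 1 with 1.5-fold required, 1 without the 4 libraries rich in rod RNA (an alternative chosen after seeing the data), between 2 and 4 with 1 library left out (4 without WT RPE 2) and 2 with the replicate block. Between the tissues it was 8, and Paqr4 and Paqr7 lost their call with 1.5-fold required. It was 8 to 9 with 1 library left out, and 8 with the replicate block, although same-numbered tissues correlated by 0.08, 0.16, 0.14 and 0.22 and share only a number. For the interaction it was 2, and 1 with 1.5-fold required, 2 to 3 with 1 library left out, and 2 with the replicate block, and in rods it was 1 throughout. The block changed no call of a member other than that of Paqr6 in the retina. Of 36 ranks of members by RPKM, 24 stayed with the coding length and 23 with the longest transcript.

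Changes of sign were all in values that were not called, and the cause was not tested. In KO retina Paqr7 was -0.0017 with DESeq2 size factors, -0.0014 with no filter, -0.0023 with DESeq2 and -0.04 to 0.07 with 1 library left out. Paqr9 was 0.11 with library totals, 0.001 with at least 10 counts and -0.04 to 0.02 with 1 library left out, and Paqr5 was -0.16 to 0.26. The interaction was -0.07 for Paqr3 and -0.05 for Paqr8 with library totals, -0.14 for Paqr8 without libraries rich in rod RNA, and -0.01 to 0.13 and -0.09 to 0.4 with 1 library left out. In rods Paqr9 was -0.05 and Mmd2 0.11 at resolution 2, and Adipor2 was -0.06 without the 5% of rods with the most UMIs. With 1 age left out, rods gave -0.14 to 0.12 for Adipor2, -0.25 to 0.72 for Paqr3, -0.17 to 0.69 for Paqr7 and -0.17 to 0.35 for Paqr9. WT rods had 694.3 CPM of Adipor1 and 84.48 CPM of Paqr4 at resolution 2. All rod values at resolution 2 lack a cluster with 9 raised rod markers that stayed unnamed. It held 814 WT and 74 KO cells of P19 and 694 WT and 103 KO cells of P25. Depth limits Paqr5 and Paqr6 in bulk retina and every member but Adipor1, Adipor2 and Paqr4 in rods.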
